A study of Mus musculus with 8 samples.

Results

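Primitive erythroid cells at E8.5 were chosen from 6 single-cell RNA-seq libraries of chimaeric mouse embryos as the barcodes with at least 1 unique molecular identifier (UMI, a tag that counts 1 captured RNA molecule) in at least 3 of 6 red cell genes, Slc4a1, Epb42, Trim10, Rhag, Smim1 and Tmcc2. Of the 37191 barcodes kept at this stage, 2953 met this rule, and the rule was set with values of these cells known. The series holds 49844 kept barcodes over both stages. Among the 2 libraries of E7.5, 35 WT host barcodes and 0 Tet-TKO barcodes met it, and these enter no comparison. The chimaeras came from ES cells lacking TET1, TET2 and TET3 (Tet-TKO), which carry an H2B-tdTomato reporter under a CAG promoter, injected into C57BL/6J host blastocysts. Embryos were pooled, dissociated and sorted, which gave 4 libraries of tdTomato+ cells (Tet-TKO) and 2 libraries of tdTomato- cells (WT host) at E8.5. All Tet-TKO cells descend from 1 ES cell line of mixed C57BL/6J and 129Sv background, so the clone, the strain and the Tet genotype cannot be told apart. Both fractions had developed in chimaeric embryos that also hold host cells. The 6 libraries held 65601218 to 136982886 UMIs each.

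Primitive erythroid cells are the first blood cells of the mouse embryo. They arise from mesodermal progenitors in the blood islands of the yolk sac, enter the circulation while still nucleated, and fill with haemoglobins built from embryonic globin chains. GATA1 and KLF1 are transcription factors that activate globin, haem and membrane genes in this lineage, and TET enzymes oxidise methylated cytosine, a step of active DNA demethylation.

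The label was checked with erythroid genes outside the rule, after each cell had been thinned at random to 5000 UMIs so that depth was equal, which 43, 82, 54 and 20 cells of Tet-TKO libraries 1 to 4 and 915 and 1778 of the WT host libraries were deep enough for. Hbb-bh1, an embryonic beta-like globin, was seen in 97.7%, 98.8%, 100% and 85% of the primitive erythroid cells of Tet-TKO libraries 1 to 4 and in 99.8% and 99.9% of those of WT host libraries 1 and 2. Gata1, which encodes the transcription factor named above, was seen in 51.2%, 37.8%, 40.7% and 45% and in 46.1% and 43.9%. Without thinning, the lowest share over the 6 libraries was 90.9% for Hbb-bh1 and 81.4% for Gata1. Neural cells of the same libraries, chosen by neural genes, gave the level of free RNA. A Gata1 UMI was seen in 0% to 0.345% of these neural cells in the Tet-TKO libraries and in 0.308% and 0.996% in the WT host libraries, and an Hbb-bh1 UMI in 1.76% to 7.06% and in 58.3% and 80.6%. In each library the selected cells held Hbb-bh1 and Gata1 more often than neural cells did, and neural cells of the WT host libraries carried more globin UMIs than those of the Tet-TKO libraries. Some other erythroid genes were seen less often in Tet-TKO than in WT host cells after thinning. Alas2 was seen in 14%, 37.8%, 29.6% and 10% against 63.3% and 77.6%. Hemgn was seen in 4.65%, 13.4%, 13% and 0% against 27.2% and 44.5%.

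Depth differed between libraries. The median UMI count of a primitive erythroid cell was 28990, 17405, 56607 and 93344 in libraries 1 to 4 of Tet-TKO cells and 20269 and 16722 in the WT host libraries, so Tet-TKO libraries 3 and 4 were the deepest, and a deeper cell meets the rule more easily. Exactly 3 of the 6 genes were found in 86%, 78.3%, 29.6% and 54.5% of the Tet-TKO cells and in 55.9% and 40.8% of the WT host cells. Just outside the rule, cells with 2 of the genes had median globin shares of 0.00401%, 0.751%, 0.00173% and 0% of their UMIs in libraries 1 to 4 of Tet-TKO cells, and just inside, cells with 3 had 1.32%, 3.9%, 2.49% and 0.931%. In the WT host libraries these medians were 4.1% and 7.69% outside and 7.92% and 13.9% inside. The cells just outside the rule in both WT host libraries thus held more globin than the cells just inside it in each Tet-TKO library.

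The 6 genes of the rule are given as a description only. Smim1, which carries the Vel blood group antigen, was the highest in every library, at 452, 479, 434 and 354 UMIs per 1000000 summed UMIs (CPM) in libraries 1 to 4 of Tet-TKO cells and 544 and 569 CPM in the WT host libraries. Slc4a1, the band 3 anion exchanger, was at 0.797, 14.4, 27.3 and 3.2 CPM and 57.1 and 152 CPM. Tmcc2 was at 27.9, 30.8, 18.1 and 17.6 CPM and 15.2 and 14.3 CPM, higher in each Tet-TKO library. The cells therefore met the rule through different genes, with Slc4a1 seen in 2.33% to 24.1% of the Tet-TKO cells and in 49.9% and 81.4% of the WT host cells.

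Some cells went against the label of their library. At least 1 tdTomato UMI was seen in 72.1%, 30.1%, 68.5% and 77.3% of the primitive erythroid cells of Tet-TKO libraries 1 to 4, against 67.2%, 61.1%, 87.7% and 83.6% of the other cells, and in 0.217% and 0.164% of those of the WT host libraries. Library 2 had the lowest share. Another mark of origin was chosen after the called genes had been seen. It is the share of UMIs of the near-identical ribosomal protein features Rps3a1 and Rps3a3 that fell on Rps3a3, which was high in most cells of the Tet-TKO libraries and low in most cells of the WT host libraries. Of the 202 Tet-TKO cells, 189 had the Rps3a3 pattern and 13 the Rps3a1 pattern of the host, with 0, 5, 4 and 4 of the latter in libraries 1 to 4. Of these 13, 12 had no tdTomato UMI, and their median globin shares in libraries 2, 3 and 4 were 17.5%, 13.6% and 12.5%. In the WT host libraries 14 and 9 cells had the Rps3a3 pattern. Values with matched cells, below, use only cells whose Rps3a pattern matches the sorted fraction. Of the barcodes that met the rule, 1 was shared between the WT host libraries and 0 between any other pair. A barcode was called mixed where it also held at least 3 genes of a set of another cell type, which was so for 2.33% to 13.6% of the cells of a library.

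**Figure D1:**
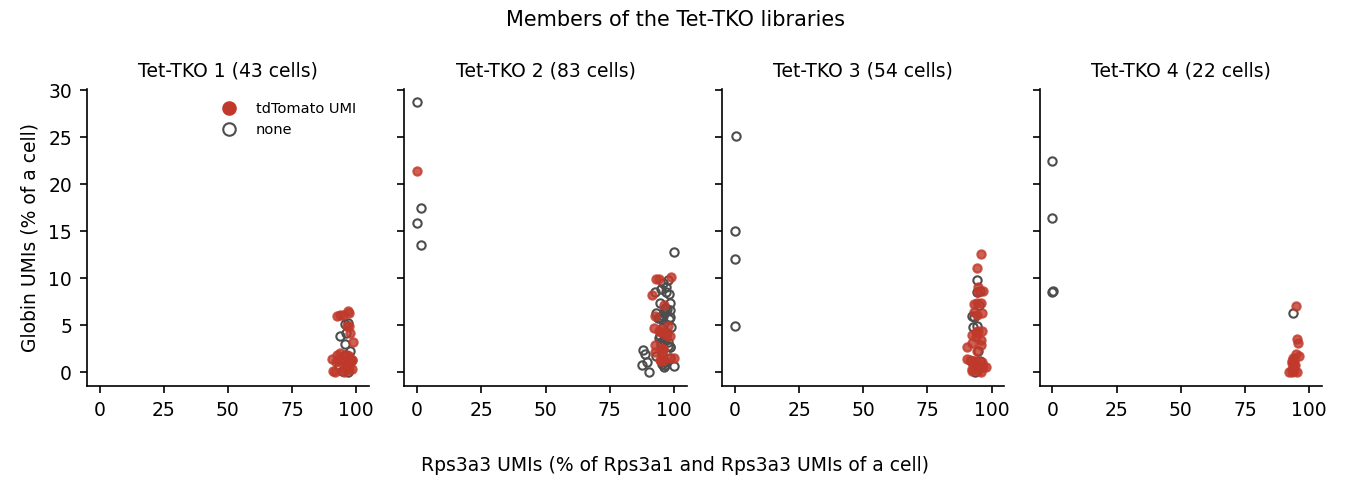
Each point is 1 primitive erythroid cell, in a panel for each Tet-TKO library, with the percentage of its Rps3a1 and Rps3a3 UMIs that fell on Rps3a3 on the x axis and the percentage of its UMIs in globin genes on the y axis; filled points have a tdTomato UMI and open points have none. Of the 202 cells, the 13 on the left of their panel have the host pattern, and 12 of them are open.

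Cells that met the rule were a smaller share of the Tet-TKO fraction than of the WT host fraction. They made up 0.611% (exact binomial 95% interval 0.442% to 0.822%), 0.869% (0.693% to 1.08%), 2.35% (1.77% to 3.05%) and 2.18% (1.37% to 3.29%) of the kept barcodes of Tet-TKO libraries 1 to 4, or 43, 83, 54 and 22 cells. In the WT host libraries they made up 11.2% (10.5% to 11.9%) and 20.2% (19.4% to 21.1%), or 923 and 1828 cells. All 4 Tet-TKO libraries lay below both WT host libraries, with means of 1.5% ± 0.889 (SD, n = 4) and 15.7% ± 6.4 (SD, n = 2). The log2 difference was -3.55, which is 11.7-fold lower, with a two-sided exact permutation p of 0.133, the smallest that 4 against 2 libraries allow. With matched cells it was -3.65. With a rule of 2 genes it was -1.57. The share counts cells that met the rule, so fewer primitive erythroid cells and lower expression of the rule genes cannot be told apart by it.

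The share was also lower at equal depth. After every kept barcode had been thinned to 5000 UMIs before the rule was applied, 1, 18, 13 and 0 cells met it in libraries 1 to 4 of Tet-TKO cells, or 0.0148%, 0.199%, 0.584% and 0% of the barcodes deep enough. The 0 of 919 barcodes of library 4 allows a share of up to 0.326%. In the WT host libraries 243 and 706 cells met it, or 3.15% and 8.49%. All these intervals and limits cover counting error only. A share also depends on how many other cells each sort held.

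Set against less mature blood cells, the libraries disagreed. Progenitor cells were barcodes outside the rule with a UMI in at least 3 of Gata1, Gfi1b, Itga2b, Tal1, Rab27b and Cited4, and numbered 236, 295, 25 and 11 in the Tet-TKO libraries and 601 and 582 in the WT host libraries. There were 0.182, 0.281, 2.16 and 2 primitive erythroid cells per progenitor in libraries 1 to 4 of Tet-TKO cells and 1.54 and 3.14 in the WT host libraries. Libraries 1 and 2 lay below both WT host values and libraries 3 and 4 between them. Depth enters both counts, since a progenitor had to fall outside the rule, and libraries 3 and 4 were the deepest. At equal depth only 13 and 0 of their cells met the rule, and the number per progenitor was not tested there. The log2 difference of -1.68 had an exact permutation p of 0.4. It was -3.28 with libraries 1 and 2 alone and -0.08 with libraries 3 and 4 alone.

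**Figure D2:**
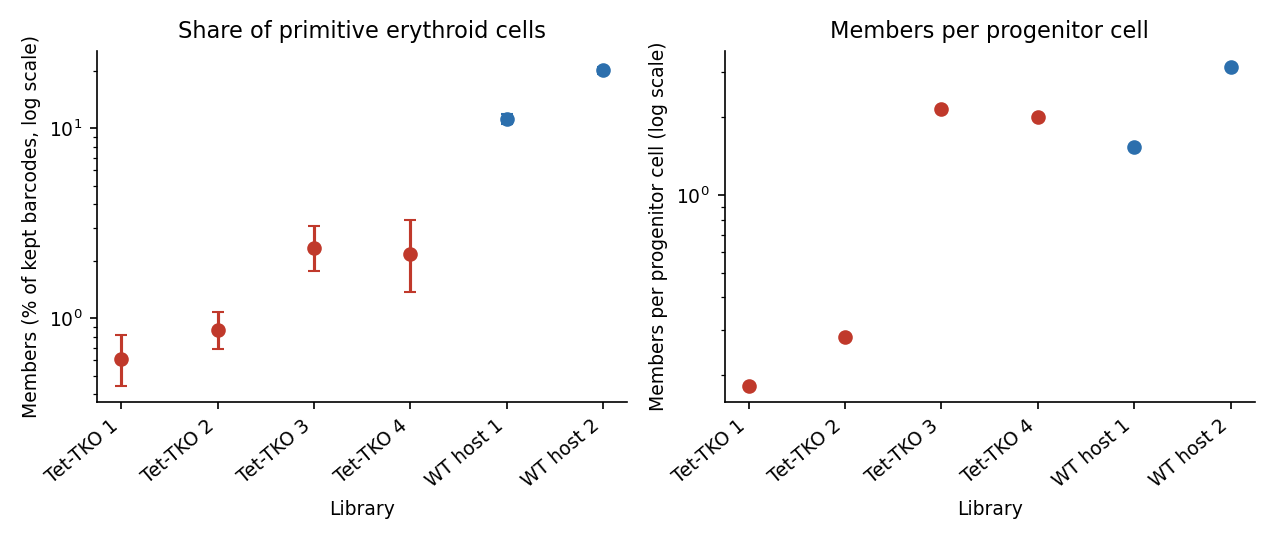
The left panel gives the share of kept barcodes that are primitive erythroid cells (members) in each library, in percent on a log axis with exact binomial 95% intervals, and the right panel their number per progenitor cell on a log axis. Shares of 0.611% to 2.35% in the Tet-TKO libraries (red) lie below 11.2% and 20.2% in the WT host libraries (blue), whereas in the right panel Tet-TKO libraries 3 and 4 lie between the WT host libraries.

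Globin transcripts took a smaller part of the RNA of Tet-TKO primitive erythroid cells. Summed over cells, the 11 globin genes took 2.32%, 5.15%, 4.6% and 2.25% of the UMIs in libraries 1 to 4 of Tet-TKO cells and 9.67% and 15.9% in the WT host libraries, and the groups did not overlap. The means were 3.58% ± 1.51 (SD, n = 4) and 12.8% ± 4.4 (SD, n = 2). The log2 difference was -1.89, which is 3.72-fold lower, again with the smallest possible two-sided exact permutation p of 0.133. With matched cells it was -2.10, with a rule of 2 genes -3.49, and after the globin share of neural cells was subtracted -1.88.

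Single cells varied widely within a library. The median globin share of a cell was 1.5%, 4.15%, 3.84% and 1.41% in the Tet-TKO libraries and 9.37% and 16.1% in the WT host libraries. From the 5th to the 95th percentile it ran from 0.752% to 13.5% in Tet-TKO library 2 and from 5.06% to 29.1% in WT host library 2. The range was 0.0756% to 6.11% for Tet-TKO library 1, 0.184% to 12.3% for library 3 and 0.00133% to 16.0% for library 4. For WT host library 1 it was 2.11% to 20.7%. At least 1 cell with no globin UMI met the rule in Tet-TKO library 2, and likewise in library 4. Cells with under 1% globin made up 25.6%, 8.43%, 22.2% and 31.8% of the Tet-TKO cells and 2.38% and 0.656% of the WT host cells. The 13 Tet-TKO cells with the host Rps3a pattern had medians of 12.5% to 17.5%, while those with the Rps3a3 pattern had 1.5%, 3.96%, 3.33% and 1.11% in libraries 1 to 4.

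**Figure D3:**
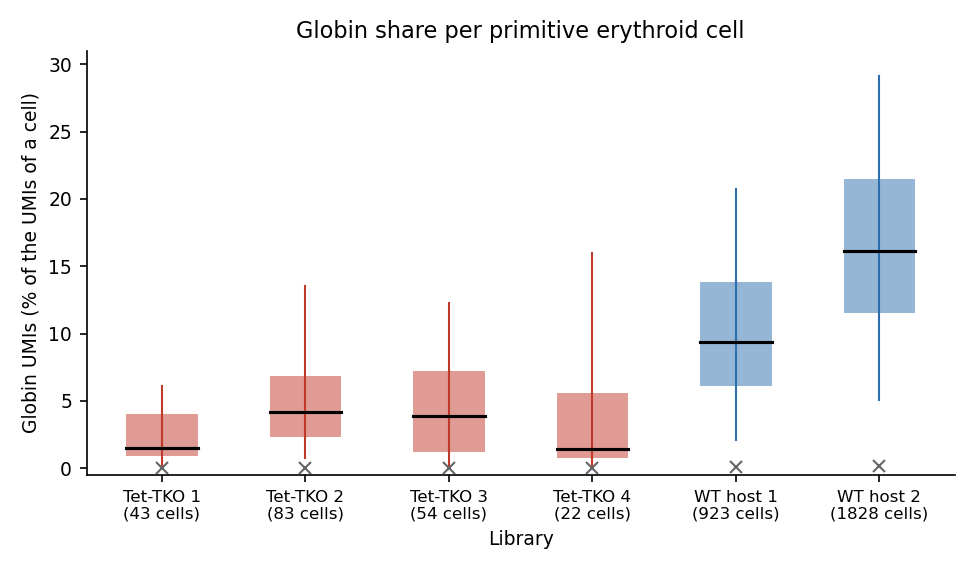
Percentage of the UMIs of a primitive erythroid cell that fall in globin genes, by library; the black line is the median, the box spans the 25th to 75th percentile, the thin line the 5th to 95th percentile, and the cross is the median of neural cells. Medians of 1.41% to 4.15% in the Tet-TKO libraries (red) lie below 9.37% and 16.1% in the WT host libraries (blue).

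Gene expression was compared on the UMIs summed over the primitive erythroid cells of each library, with the quasi-likelihood test of edgeR over 9084 genes. A gene was called at a Benjamini-Hochberg adjusted p under 0.01 and a log2 fold change of at least 1 in size. Of the genes tested, 325 were called (3.58%), 160 higher (1.76%) and 165 lower (1.82%) in Tet-TKO cells. With matched cells, 319 of the 321 of them that could be tested were called in the same direction. In 3459 of the 9084 genes tested (38.1%), every Tet-TKO library lay outside the WT host range, as in all 325 called genes. Groups without overlap were therefore common, also among genes that were not called. An unadjusted p under 0.05 from edgeR was likewise common, seen for 2404 of the 9084 genes tested. Fold changes below are log2, Tet-TKO minus WT host, with their standard error (SE), and levels are CPM of 3′ counts, which are not divided by gene length. The median over all genes tested was 0.0178, and it would be 0.222 from CPM without the scaling of edgeR, so changes are relative to that scaling. Lists are described by their counts and medians, and genes of a list that were too low to be tested are not counted.

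Several globins were called lower in Tet-TKO cells and 1 was called higher. Of 11 globin genes, 10 were tested, 5 were called lower and 1 higher, with a median of -1.67. With the rule applied after thinning to 5000 UMIs, 1 was called lower, Hba-x (-1.15, edgeR adjusted p = 0.0079), and the median was -1.11. Hba-x, the embryonic zeta-like alpha chain, was at 10513, 24568, 20125 and 7947 CPM in libraries 1 to 4 of Tet-TKO cells and at 50552 and 75702 CPM in the WT host libraries. All Tet-TKO libraries lay below the host libraries (-2.22, SE 0.39, edgeR adjusted p = 0.00635). Hbb-bh1 was at 9930, 17478, 13846 and 9254 CPM against 29825 and 40416 CPM (-1.69, SE 0.25, edgeR adjusted p = 0.00264). The alpha chains that persist in later stages were lower too, Hba-a1 at 1178, 2448, 2580 and 1769 CPM against 3896 and 6774 CPM (-1.65, SE 0.30, edgeR adjusted p = 0.00771). The call of Hba-a1 was lost without WT host library 2 (-1.13, edgeR adjusted p = 0.111), without Tet-TKO library 1, 3 or 4 (-1.78 to -1.47) and after thinning (-0.74, edgeR adjusted p = 0.128). Its near-identical copy Hba-a2 was called as well (-2.34, edgeR adjusted p = 0.00088), and how reads were divided between the copies is uncertain.

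The beta-like genes were less even. Hbb-y, the epsilon-like embryonic chain, was at 791, 5502, 8322 and 2692 CPM against 10482 and 32410 CPM. The groups did not overlap, but the libraries spread widely within each, and the difference was not called (-2.55, SE 0.69, edgeR adjusted p = 0.0427). With the replicate number as a block in the fit, Hbb-y was called lower (-3.29). Numbers 3 and 4 occur only in Tet-TKO, so that difference rests on libraries 1 and 2 of each group, with little left to measure spread. With Tet-TKO libraries 1 and 2 alone and no block it was not called (-2.94, edgeR adjusted p = 0.0969). Hbb-bt, an adult beta chain, was called (-2.22, SE 0.41, edgeR adjusted p = 0.00771) and its near-identical neighbour Hbb-bs was not (-1.38, edgeR adjusted p = 0.0289). The call of Hbb-bt was lost without any single library but Tet-TKO library 4, with the highest adjusted p without WT host library 2 (-1.85, edgeR adjusted p = 0.093), and after thinning (-2.91, edgeR adjusted p = 0.0438), and Hbb-bs was called without Tet-TKO library 2 (-1.69, edgeR adjusted p = 0.00594). Hbb-bh0, annotated as an unprocessed pseudogene of the beta-globin cluster, was at 186, 430, 352 and 159 CPM in Tet-TKO cells and at 10.8 and 20.7 CPM in WT host cells. It was the globin that was higher, in every Tet-TKO library (3.93, SE 0.49, edgeR adjusted p = 0.000878). The 129Sv and C57BL/6J strains carry different versions of the beta-globin cluster, so strain and genotype cannot be told apart for these genes. The call of Hba-x was lost without WT host library 2 (-1.84, edgeR adjusted p = 0.0493), without Tet-TKO library 1 (-2.06, edgeR adjusted p = 0.0181) and without Tet-TKO library 3 (-2.33, edgeR adjusted p = 0.0224). Without WT host library 2, Hba-a2 was the one globin called lower, and Hbb-bh0 was called higher.

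Part of the genes of haem synthesis were called lower. All 20 of the list were tested, 8 were called lower and 0 higher, and 18 had a negative difference, with a median of -0.91. DESeq2 called 9 lower and 0 higher. Alas2, the erythroid form of the first and rate-limiting enzyme, was at 47, 106, 69.1 and 61.3 CPM in libraries 1 to 4 of Tet-TKO cells and at 210 and 312 CPM in the WT host libraries. No Tet-TKO library reached the lower host value (-2.10, SE 0.27, edgeR adjusted p = 0.00114). Tmem14c, which carries a haem precursor across the inner mitochondrial membrane, was at 932, 1197, 972 and 820 CPM against 1961 and 2261 CPM (-1.32, SE 0.17, edgeR adjusted p = 0.00114). Blvrb, biliverdin reductase B of haem breakdown, was at 367, 579, 441 and 286 CPM against 1039 and 1227 CPM (-1.65, SE 0.24, edgeR adjusted p = 0.00239). Uros, uroporphyrinogen III synthase, fell as well (-1.48, SE 0.17, edgeR adjusted p = 0.000662), and further called genes included Abcb10 (-1.16), Ppox (-1.11) and Slc25a39 (-1.03). Alas1, the form used by most other cells, was not called (0.59, edgeR adjusted p = 0.138).

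Iron genes and genes of the red cell membrane were lower in part. Of 13 iron genes tested, 2 were called lower and 0 higher, with a median of -0.24. Slc25a37, the mitochondrial iron importer mitoferrin 1, was at 53.4, 102, 174 and 107 CPM against 271 and 382 CPM (-1.78, SE 0.31, edgeR adjusted p = 0.00619). Steap3, an iron reductase of endosomes, was at 4.78, 8.53, 12.9 and 9.06 CPM against 23.9 and 27.1 CPM (-1.65, SE 0.23, edgeR adjusted p = 0.00192). The transferrin receptor gene Tfrc (-0.40) and the ferritin gene Fth1 (-0.35) were not called. Of 23 membrane and skeleton genes tested, 6 were called lower and 0 higher, with a median of -0.94. Rhd, the Rh blood group protein, was at 0, 3.93, 2.15 and 0.533 CPM against 27.6 and 34.9 CPM (-4.38, SE 0.40, edgeR adjusted p = 0.000146). With matched cells its difference was -6.11, and 4 of its 14 UMIs in Tet-TKO cells lay in matched cells. Kcnn4, a calcium-gated potassium channel, was at 5.58, 11.1, 9.22 and 8.53 CPM against 35.1 and 39.1 CPM (-2.31, SE 0.20, edgeR adjusted p = 0.000129). In both the host libraries lay far above every Tet-TKO library. Ermap (-2.35), a surface protein of erythroblasts, and Dmtn (-1.82), the actin-bundling protein dematin, were called as well, as were the glucose transporter gene Slc2a1 (-1.36) and the amino acid transporter gene Slc43a1 (edgeR adjusted p = 0.00589).

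Of 17 tested genes of red cell maturation and redox defence, edgeR called 0 lower and 0 higher. Its unadjusted p was under 0.05 for 9 of them, beside 2404 of all 9084 genes tested. DESeq2 called 1 lower. That gene, chosen after its values were seen, was Hebp1, a haem-binding protein, at 39, 108, 79.3 and 42.6 CPM against 150 and 252 CPM (-1.79, SE 0.35, edgeR adjusted p = 0.0108). Prdx2, an abundant red cell peroxidase, was at 1995, 2428, 1960 and 1669 CPM against 3234 and 3414 CPM, and its difference was under the fold required (-0.94, SE 0.16, edgeR adjusted p = 0.0061).

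The number of calls changed with the libraries and cells that entered. Without WT host library 2, edgeR called 0 haem, 0 iron and 2 membrane genes lower, beside 0.596% of all genes tested. Without WT host library 1, the 1.06% of all genes called lower included 7 haem, 2 iron and 5 membrane genes. The median of the haem genes without WT host library 2 was -0.76, with 17 of 20 negative. After thinning before the rule, which left only Tet-TKO libraries 2 and 3 with enough cells, 1 haem and 1 membrane gene were called lower, with medians of -0.55 and -0.38, beside 0.195% of all genes tested. Thinning also cut the Tet-TKO cells from 202 to 32, and depth, cells and libraries cannot be told apart there. Ermap (-0.48, edgeR adjusted p = 0.602) and Dmtn (-0.67, edgeR adjusted p = 0.593) were then not called, nor were Rhd (-2.43, edgeR adjusted p = 0.0191), Steap3 (-0.90, edgeR adjusted p = 0.401) and Blvrb (-0.87, edgeR adjusted p = 0.0246). With matched cells 9 haem, 2 iron and 8 membrane genes were called lower, beside 2.07% of all genes tested. Of the 50 called genes named in these comparisons, 19 were not called without WT host library 2, among them Alas2, Uros, Tmem14c and Blvrb of haem synthesis and Dmtn, Ermap, Slc25a37 and Steap3. Without Tet-TKO library 3, 13 were not called, and without any other single library 5 to 8. Whichever library was left out, 27 were called, among them Klf1, Hemgn, Rhd, Kcnn4, Hba-a2, Hbb-bh0, Myb, Hhex, Fli1, Rab27b and Fgf3. After thinning 49 of the 50 could be tested, all with the same sign, and 21 were called, among them Hba-x, Alas2, Hbb-bh0, Hhex, Rab27b and Fgf3. The log2 difference was then more than 1.5 times smaller for 18 of them.

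The regulators of the lineage included called genes in both directions. Of 22 erythroid regulators tested, 3 were called lower and 1 higher, beside 1.82% and 1.76% of all genes tested, with a median of -0.34. An unadjusted p under 0.05 was seen for 15 of them, beside 2404 of all 9084 genes tested. Klf1 was at 66.1, 72.1, 60.2 and 56 CPM in libraries 1 to 4 of Tet-TKO cells and at 159 and 165 CPM in the WT host libraries. The gap between the groups was wide beside the spread within them (-1.58, SE 0.14, edgeR adjusted p = 0.000131). Hemgn, a nuclear protein of blood cells, was at 9.56, 26.2, 17.5 and 10.7 CPM against 77.4 and 133 CPM (-2.94, SE 0.33, edgeR adjusted p = 0.000501). Klf3, a repressor of the same family as Klf1, was at 3.98, 4.59, 17.5 and 10.7 CPM against 29.4 and 35.2 CPM (-1.84, SE 0.33, edgeR adjusted p = 0.00737). The call of Klf3 was lost without any single library but Tet-TKO library 3 (-2.05 to -1.65) and after thinning (-0.99, edgeR adjusted p = 0.314). Gata1 was at 110, 111, 108 and 103 CPM against 129 and 117 CPM, slightly lower in each Tet-TKO library, and was not called (-0.40, SE 0.12, edgeR adjusted p = 0.053). Its partners Tal1 (0.00353), Lmo2 (0.03) and Zfpm1 (-0.09) and the globin activator Nfe2 (0.55) were not called either. After thinning before the rule neither Klf1 (-0.94, edgeR adjusted p = 0.0241) nor Hemgn (-1.53, edgeR adjusted p = 0.06) was called.

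Several factors of less mature blood cells were higher. Myb, needed for definitive blood progenitors, was at 75.7, 40.7, 41.8 and 57.6 CPM in Tet-TKO cells and at 7.77 and 3.95 CPM in WT host cells. It was higher in every Tet-TKO library and was the erythroid regulator called higher (2.99, SE 0.32, edgeR adjusted p = 0.000415). Of 19 progenitor regulators only 11 were high enough to be tested, and 4 were called higher and 0 lower, with a median of 0.52. Over all genes tested, 1.76% were called higher. Hhex, a homeobox factor of blood and endothelial progenitors, was at 63, 61, 79 and 70.4 CPM against 8.23 and 8.51 CPM (2.81, SE 0.16, edgeR adjusted p = 1.64e-05). Fli1, an ETS factor of endothelium and megakaryocytes, was at 41.4, 26.2, 32.9 and 27.7 CPM against 5.84 and 2.52 CPM (2.76, SE 0.31, edgeR adjusted p = 0.000585). In both, the lowest Tet-TKO library was well above the higher host library. Rab27b, a small GTPase of platelet granules, was at 94, 65.6, 93.1 and 65 CPM against 8.44 and 3.79 CPM (3.52, SE 0.31, edgeR adjusted p = 0.000129). Runx1, which is required for definitive blood, was at 179, 129, 142 and 112 CPM against 63.5 and 37.4 CPM (1.27, SE 0.23, edgeR adjusted p = 0.0071). Runx1 was not called without WT host library 2 (0.97, edgeR adjusted p = 0.0978), without Tet-TKO library 1, 2 or 3 (1.13 to 1.28), or with a rule of 2 genes, where its sign turned (-0.16). After thinning before the rule, 6 progenitor regulators could be tested and 2, Hhex and Rab27b, were called. Fli1 (2.41, edgeR adjusted p = 0.136), Runx1 (0.82, edgeR adjusted p = 0.262) and Myb (2.96, edgeR adjusted p = 0.0115) were then not called. Gata2 (0.98), Kit (0.33), Etv2 (0.52) and Kdr (-1.45) were not called.

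Markers of neighbouring cell types were read beside these genes. The 10 megakaryocyte markers summed to 39 to 68.8 CPM in Tet-TKO and 41.1 and 36.6 CPM in WT host primitive erythroid cells, and the 10 endothelial markers to 73.4 to 124 CPM and 112 and 85.2 CPM, so the groups overlapped in both. Cldn5 and Emcn of the endothelial list were at 0 in the Tet-TKO cells. The 10 myeloid markers summed to 3.28 to 5.58 CPM and 6 and 4.1 CPM. Of the markers tested, edgeR called 0 of 2 endothelial, 0 of 5 mesenchyme, 0 of 2 neural and 0 of 4 trophoblast markers, with 0, 1, 0 and 0 at an unadjusted p under 0.05, and DESeq2 called the mesenchyme marker Ahnak lower. No myeloid marker was high enough to be tested. The part of other cells in the higher progenitor genes was not tested.

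**Figure D4:**
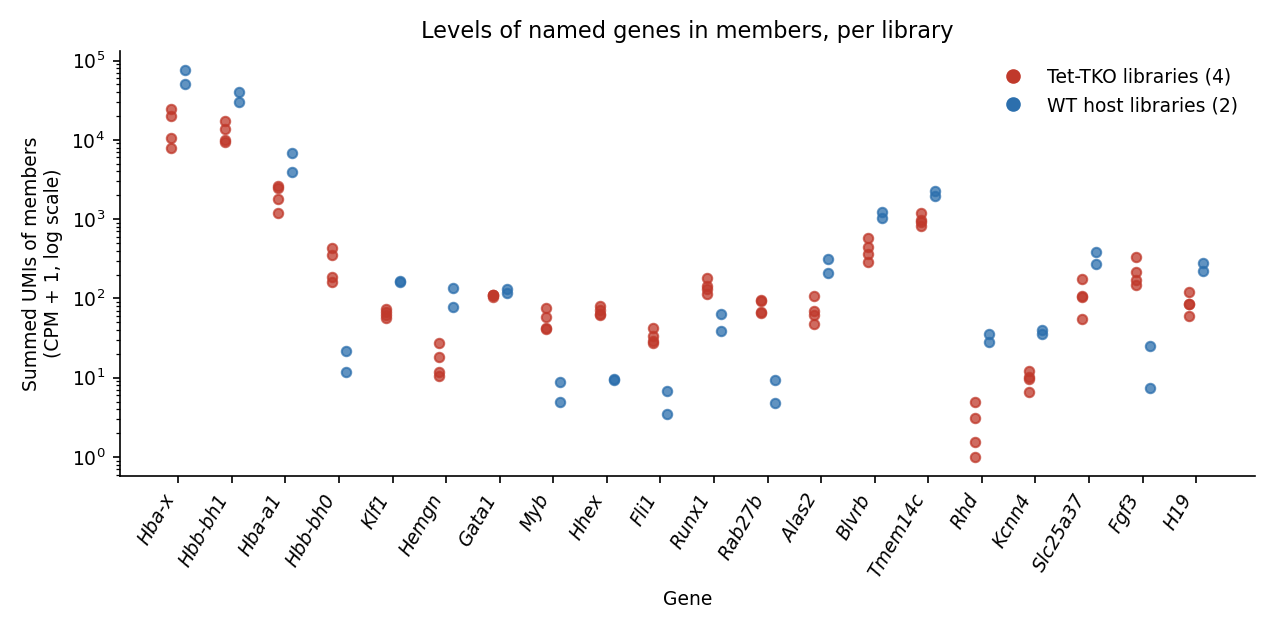
Levels of 20 genes in the summed primitive erythroid cells (members) of each library, as CPM plus 1 on a log axis, with 4 Tet-TKO libraries in red and 2 WT host libraries in blue. Hba-x, Klf1, Hemgn, Alas2 and Rhd lie lower in all Tet-TKO libraries, Hbb-bh0, Myb, Hhex, Fli1, Rab27b and Fgf3 lie higher, and the levels of Gata1 lie close together.

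Promoter windows of 5 genes are shown because these genes stand for the globin, haem and regulator groups above, and GATA1 and KLF1 are known to bind short sites near such genes. Each window is the 250 bases before the start site on the strand of the gene, 5′ to 3′, from RefSeq. Capitals mark the GATA motif in the form AGATAA, the same motif in the form TGATAA, and CCNCNCCC (a CACCC-type motif, of which CCNCACCC is a narrower case) on either strand.
Hba-x (GRCm38.p6 chr11:32276350-32276599, strand +): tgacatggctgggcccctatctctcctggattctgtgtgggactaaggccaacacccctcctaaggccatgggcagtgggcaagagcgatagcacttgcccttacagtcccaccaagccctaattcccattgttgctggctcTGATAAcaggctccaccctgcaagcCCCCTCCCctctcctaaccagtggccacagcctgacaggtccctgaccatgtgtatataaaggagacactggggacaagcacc
Klf1 (GRCm38.p6 chr8:84901732-84901981, strand +): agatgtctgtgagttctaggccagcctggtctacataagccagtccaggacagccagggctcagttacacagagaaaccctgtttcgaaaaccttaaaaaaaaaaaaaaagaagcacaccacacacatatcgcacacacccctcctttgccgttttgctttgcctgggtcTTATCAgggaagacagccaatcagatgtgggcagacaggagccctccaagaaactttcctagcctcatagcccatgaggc
Hemgn (GRCm38.p6 chr4:46404184-46404433, strand -): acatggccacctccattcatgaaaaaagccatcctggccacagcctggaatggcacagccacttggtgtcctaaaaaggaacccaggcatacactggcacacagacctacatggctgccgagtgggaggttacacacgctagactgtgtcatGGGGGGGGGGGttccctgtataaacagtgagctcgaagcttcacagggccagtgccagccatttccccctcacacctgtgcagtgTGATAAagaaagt
Alas2 (GRCm38.p6 chrX:150547167-150547416, strand +): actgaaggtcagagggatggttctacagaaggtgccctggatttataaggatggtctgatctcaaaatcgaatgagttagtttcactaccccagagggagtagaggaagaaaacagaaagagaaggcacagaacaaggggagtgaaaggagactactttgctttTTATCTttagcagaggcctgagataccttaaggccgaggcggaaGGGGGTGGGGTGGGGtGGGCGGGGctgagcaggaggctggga
Myb (GRCm38.p6 chr10:21160985-21161234, strand -): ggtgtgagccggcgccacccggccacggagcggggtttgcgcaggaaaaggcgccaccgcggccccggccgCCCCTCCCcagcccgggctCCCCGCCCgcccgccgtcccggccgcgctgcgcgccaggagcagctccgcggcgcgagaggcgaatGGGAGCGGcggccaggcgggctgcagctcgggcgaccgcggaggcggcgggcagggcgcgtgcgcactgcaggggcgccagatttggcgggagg
The windows of Hba-x, Klf1 and Hemgn hold 1 TGATAA each, as 7.94% of 32851 windows of this length do, and that of Alas2 holds 1 AGATAA, as 9.99% do. The window of Myb, the gene of the 5 that was higher, holds neither. CCNCNCCC is found in the windows of Hba-x, Hemgn, Alas2 and Myb and in 45.9% of all windows, and CCNCACCC in that of Alas2 and in 14.9% of all windows. The number of CG dinucleotides, where cytosine is methylated, is 1 in Hba-x, 3 in Klf1, 3 in Hemgn, 4 in Alas2 and 40 in Myb, and the median of all windows is 6. A match describes letters only.

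Fgf3, a secreted growth factor, was at 332, 214, 145 and 169 CPM in Tet-TKO cells and 24.1 and 6.52 CPM in WT host cells, higher in every Tet-TKO library (3.63, SE 0.52, edgeR adjusted p = 0.00204). With Fgf10 (2.20, edgeR adjusted p = 0.0061), 2 of 7 tested genes of the FGF pathway were called higher and 0 lower. Over all genes tested, 1.76% were called higher. At 1.73 and 1.27 CPM in the WT host libraries, Fgf10 passed the filter on low counts through the Tet-TKO libraries, where it was high. The call of Fgf10 was lost without any single library but Tet-TKO library 2, and after thinning it was too low to be tested. Fgf8 was at 0.797, 11.8, 1.23 and 51.2 CPM against 3.81 and 7.33 CPM. Its difference was not called (1.25, edgeR adjusted p = 0.416) and turned to -0.74 without Tet-TKO library 4, the highest. In the erythropoietin receptor pathway, the kinase gene Lyn was called higher (2.01, edgeR adjusted p = 0.000977) and the adaptor gene Gab1 lower (-1.96, edgeR adjusted p = 0.00773), of 11 tested, and the receptor gene Epor was not called (-0.40, edgeR adjusted p = 0.0863). Neither Lyn nor Gab1 was called without WT host library 1 (1.96, edgeR adjusted p = 0.0162; -1.90, edgeR adjusted p = 0.06), without WT host library 2 (2.03, edgeR adjusted p = 0.0197 for Lyn) or after thinning (0.81, edgeR adjusted p = 0.618; -2.70, edgeR adjusted p = 0.0699). The call of Gab1 was also lost without Tet-TKO library 1, 2 or 3 (-1.85 to -1.64).

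Of 23 tested imprinted genes, whose expression from 1 parental allele is set by DNA methylation, 2 were called higher and 1 lower. H19, a non-coding RNA, was at 118, 59, 85.1 and 83.7 CPM against 224 and 275 CPM (-1.77, SE 0.20, edgeR adjusted p = 0.000608), but with a rule of 2 genes its difference was 0.10. Snrpn (1.32, edgeR adjusted p = 0.000146) and Zdbf2 (1.96, edgeR adjusted p = 0.000364) were higher. Dppa4, a gene of pluripotent and germ cells, was at 28.7, 47.9, 29.2 and 35.7 CPM against 0.61 and 0.59 CPM (5.61, SE 0.31, edgeR adjusted p = 1.64e-05), and was the called gene of 8 tested in its list. It passed the filter on low counts through the Tet-TKO libraries, where it was high.

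Genes of DNA methylation and the cell cycle gave no call. Of 16 DNA methylation genes edgeR called 0 in either direction, with 4 at an unadjusted p under 0.05, and DESeq2 called 0. This count and those below stand beside 2404 of all 9084 genes tested with an unadjusted p under 0.05. Dnmt1, the maintenance methyltransferase, was at 104, 132, 132 and 124 CPM against 98 and 96.4 CPM (0.12, SE 0.13, edgeR adjusted p = 0.589). Tet1 was at 1.59 to 5.86 CPM in Tet-TKO cells and 6 and 3.7 CPM in the WT host libraries, Tet2 at 3.93 to 11.1 CPM and 4.73 and 4.38 CPM, and Tet3 at 13.1 to 18.7 CPM and 11.6 and 11.9 CPM. Tags from the 3′ end need not cover the part that was knocked out, so these levels check neither genotype nor label. Of 19 S phase genes and 19 G2 and M phase genes edgeR and DESeq2 called 0, with 4 and 1 at an unadjusted p under 0.05. Rrm2, a subunit of ribonucleotide reductase, was under the fold required (-0.64, edgeR adjusted p = 0.00771). Of 18 glycolysis genes, Pfkp was called higher (1.51, edgeR adjusted p = 0.00285). Its call was lost without WT host library 2 (1.24, edgeR adjusted p = 0.0529), without Tet-TKO library 3 (1.38, edgeR adjusted p = 0.0175) and after thinning (1.33, edgeR adjusted p = 0.262). Of 9 p53 response genes edgeR and DESeq2 called 0, with 3 at an unadjusted p under 0.05 and a median of 0.28. Of 11 cyclins and CDK inhibitors edgeR and DESeq2 called 0, with 3 at an unadjusted p under 0.05.

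**Figure D5:**
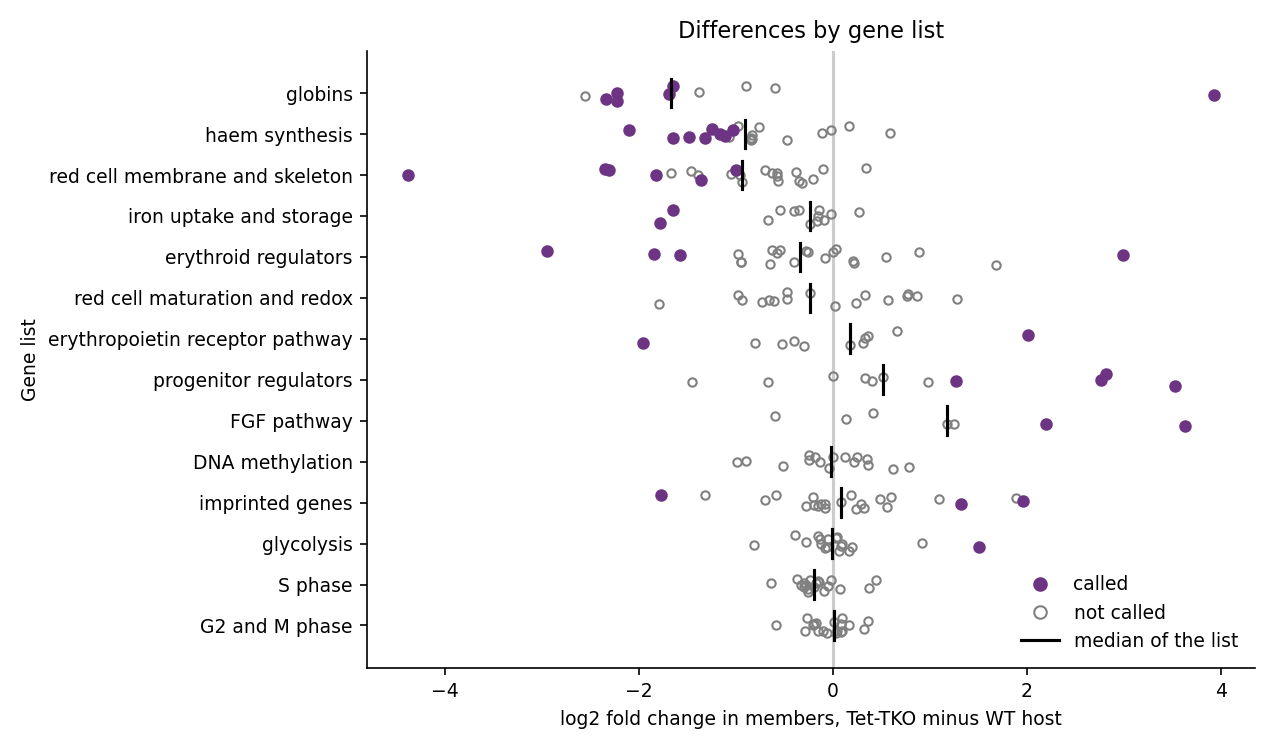
Each point is 1 tested gene of a list at its log2 fold change between Tet-TKO and WT host primitive erythroid cells (x axis), filled where called and open where not, with a black line at the median of the list. The medians of the globin, haem and membrane lists are -1.67, -0.91 and -0.94, and those of the 2 cell cycle lists are -0.19 and 0.00689.

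Of the 8 called genes with the highest fold changes among those with a mean of at least 20 CPM, 5 are annotated as processed pseudogenes. The 8 were Rps13-ps1 (6.08), Rps3a3 (5.90), Rps15a-ps8 (5.83), Dppa4, Gm15459 (5.01), Gm10036 (4.95), AA465934 (4.74) and the homeobox gene Hopx (4.37, edgeR adjusted p = 8.96e-05). Among all called genes, 21 of the 160 higher and 0 of the 165 lower are annotated as pseudogenes. Rps3a3 was at 3990 to 4635 CPM in Tet-TKO and 100 and 24.9 CPM in WT host cells, and Rps3a1 at 211 to 546 CPM and 4845 and 4653 CPM, while the sum of these near-identical copies was 4684 and 4812 CPM on average. For such copies, strain differences in where reads align and expression cannot be told apart. Mrap, an accessory protein of the melanocortin 2 receptor, was at 0, 7.87, 9.83 and 9.59 CPM in all Tet-TKO cells against 130 and 179 CPM (-4.58, SE 0.36, edgeR adjusted p = 6.01e-05). All 62 UMIs of Mrap in the Tet-TKO cells lay in the 13 cells with the Rps3a1 pattern of the host, and none in the 189 matched cells. Against a floor of 3 UMIs over those cells Mrap was at least 391-fold lower in them. Also at the lower end were Nxpe2 (-3.61, edgeR adjusted p = 0.000143), Hemgn and Rps3a1, and Ttr, Rbp4, Apoa1 and Spink1, of which Ttr, Rbp4 and Apoa1 are products of yolk sac endoderm.

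Markers of yolk sac endoderm and heart were lower in the Tet-TKO primitive erythroid cells and in Tet-TKO neural cells. The 10 endoderm markers summed to 1.31 to 3.73 CPM in Tet-TKO and 447 and 86.5 CPM in WT host primitive erythroid cells, and to 8.05 to 10.3 CPM and 323 and 128 CPM in neural cells. All 5 that passed the filter on low counts, which they did through the WT host libraries, were called lower in the main comparison, and Apob, Amn and Apoa4 were at 0 in the Tet-TKO cells. With mixed barcodes left out, a rule that removes cells with a UMI in at least 3 of the first 6 of these markers among others, 2 of them could be tested, Ttr (-5.35, edgeR adjusted p = 0.00153) and Apoa1 (-3.27, edgeR adjusted p = 0.00982). None of the 5 was called with Tet-TKO libraries 1 and 2 alone, with libraries 3 and 4 alone or after thinning. Ttr then differed by -13.09 (edgeR adjusted p = 0.0872), -7.33 (edgeR adjusted p = 0.0201) and -4.38 (edgeR adjusted p = 0.0168), and Tet-TKO libraries 1 and 2 held 0 UMIs of it. The 10 cardiomyocyte markers summed to 12.8 to 19.9 CPM and 94.1 and 84.2 CPM, with Actn2 and Nppa at 0 in the Tet-TKO cells. In neural cells they summed to 20.3 to 58.9 CPM and 85 and 63.4 CPM, again with no overlap, whereas in endothelial cells the groups overlapped, at 22.4 to 53.7 CPM and 199 and 49.4 CPM. Xist was at 0.797 to 23 CPM against 293 and 236 CPM (-4.14, edgeR adjusted p = 0.000135), and the Y-linked genes Ddx3y and Eif2s3y were also called lower, in cells from 1 ES cell line against pooled host embryos. The part of RNA from other cells in the called genes was not tested.

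The last comparison asked whether a difference in primitive erythroid cells was unlike that in endothelial cells of the same libraries, chosen by endothelial genes. The edgeR test of the interaction called 162 of 11866 genes (1.37%), 118 positive (0.994%) and 44 negative (0.371%). Rab27b differed by 3.52 in primitive erythroid and -0.15 in endothelial cells (interaction 3.75, edgeR adjusted p = 6.07e-05). Fli1 differed by 2.76 and -0.35 (interaction 3.19, edgeR adjusted p = 1.65e-06), and endothelial cells held 119 to 148 CPM of it in Tet-TKO and 182 and 160 CPM in WT host libraries. Gucy1a1, a subunit of the nitric oxide receptor, was at 95.6, 48.5, 82.4 and 102 CPM against 8.64 and 4.57 CPM in primitive erythroid cells, higher in each Tet-TKO library (interaction 2.88, edgeR adjusted p = 0.00156). The interactions of Hhex (2.46) and Myb (2.25) were called too, and those of Klf1 (0.26, edgeR adjusted p = 0.819) and Alas2 (2.46, edgeR adjusted p = 0.0196) were not. Endothelial cells held 3 to 11 UMIs of Klf1 in a Tet-TKO library and 20 and 30 in the WT host libraries. For Alas2 they held 0 to 2 and 28 and 35. Both interactions thus rest on few endothelial UMIs, and whether these are free RNA was not tested.

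Hba-x had a positive interaction (4.59, edgeR adjusted p = 9.72e-08) although it fell in primitive erythroid cells. Endothelial cells held 5.64 to 21.3 CPM of Hba-x in the Tet-TKO and 875 and 1886 CPM in the WT host libraries, and neural cells 2.45 to 32.7 CPM and 632 and 781 CPM. The median globin share of WT host endothelial cells was 0.0543% and 0.134%, beside 0.0521% and 0.137% in neural cells, which were taken above as a measure of free RNA. A difference in endothelial expression and one in free RNA cannot be told apart here. Among called genes with a mean of at least 20 CPM and every Tet-TKO library outside the WT host range, mitochondrial, Xist and Y-linked genes aside, the 4 largest negative interactions were those of Rbp4 (-5.30, edgeR adjusted p = 0.000212) and Ttr (-3.57, edgeR adjusted p = 0.00447), which belong to the endoderm markers above, Ucp2 and Cd24a. Ucp2, a mitochondrial carrier gene, was at 39.8, 45.2, 26.1 and 18.7 CPM against 102 and 126 CPM in primitive erythroid cells, and differed by -2.09 there and 0.28 in endothelial cells (interaction -2.27, edgeR adjusted p = 7.79e-06). Cd24a, a surface antigen gene, was at 36.7, 65.6, 24.9 and 42.6 CPM against 212 and 197 CPM (interaction -1.84, edgeR adjusted p = 2.38e-05). In both, all Tet-TKO libraries lay below the WT host libraries. For H19 the interaction was called (-1.71, edgeR adjusted p = 4.3e-05), with -0.06 in endothelial cells, whereas Snrpn (1.78) and Zdbf2 (1.95) differed in endothelial cells with interactions that were not called.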

How the data were processed

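Chimaeric embryos were dissociated, sorted by tdTomato, and sequenced as single cells with the 10x Genomics chemistry that tags 3′ ends. The authors aligned reads to mm10 with Cell Ranger (version 3.1.0 per the file headers, while the study's methods name a later version) and a GRCm38.92 annotation to which tdTomato was added, and deposited by the authors are UMI counts for each gene in each barcode, not normalized. A barcode was kept if it held 1500 UMIs or more, with no more than 30% from mitochondrial and no more than 35% from ribosomal protein genes. No doublet caller was run, and mixed barcodes were left out as an alternative. Primitive erythroid cells, and the other cells by their own genes (endothelial: Cdh5, Pecam1, Tie1, Cldn5, Egfl7, Emcn; neural: Sox1, Sox2, Sox3, Pax6, Fabp7, Hes5), needed at least 3 of 6 genes. The members and the gene lists were chosen with earlier results of these data known.

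UMI counts were summed over cells per library and tested with edgeR 4.0.16 (R 4.3.3; filterByExpr, TMM, quasi-likelihood, genotype as the only term), with the 6 genes of the rule and tdTomato left out of the genes tested. DESeq2 1.42.0 was an alternative. Shares were tested over libraries by exact permutation (scipy 1.17.1). On simulated counts with log2 changes of 1.5 and 2, the comparison of primitive erythroid cells recovered 98% and 100% of the changed genes with 9 and 10 false calls, and the interaction 97.5% at 2 with 5 false calls. The changed genes were drawn only from the more abundant genes, and all libraries were given the same baseline profile. Recovery of low genes was thus not tested. The sources do not say that libraries came from separate pools of embryos, so p-values measure only the spread between these libraries, which may be technical. Library pairs of a group differed beyond sampling noise (chi-square per degree of freedom of 3.51 to 9.93 among Tet-TKO libraries and 66 between WT host libraries) and none was counted as a repeat.

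Genes were named by rule. They are genes the study discusses, globins with at least 10 UMIs in a library, up to 4 called genes per list with the largest change (where none was called, the 2 with the highest mean CPM), the 8 called genes with the largest change in each direction among those with a mean of at least 20 CPM, and the 4 largest interactions in each direction. For the last 2 kinds the mean had to be at least 20 CPM, every Tet-TKO library had to lie outside the WT host range, and mitochondrial, Xist and Y-linked genes were left out. Other genes were named because they belong to a list described. Single values of some genes are not reported here. Promoter sequences are from RefSeq (GRCm38.p6), with 32851 distinct windows of 27025 genes as the background.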

Additional observations from a re-analysis of the deposited data

Results flagged for a closer look

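In 81 groups of 4 Tet-TKO libraries, the highest or lowest library was compared with the other 3 by its gap relative to the whole range (Dixon's test at its 95% critical value), which chance passes in about 1 in 20 groups. It was passed by 4 genes. Tet1 was at 5.86 CPM in Tet-TKO library 4, Hbq1b, a theta-like globin, at 38.0 CPM in library 2, Gab1 at 12.3 CPM in library 4 and Spink1 at 3.98 CPM in library 1. Each was the highest of its group.

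For 22 of 75 named genes the log2 difference between Tet-TKO and WT host cells was unlike that in endothelial cells of the same libraries, by the interaction test of edgeR at the same thresholds. Over all genes the test called 162 of 11866 (1.37%). The named genes include those with the largest interactions and many named because they were called. The 22 of 75 is thus set in part by that choice. Among genes of blood and signalling the interaction was positive for Hba-x (4.59), Rab27b (3.75), Fli1 (3.19), Gucy1a1 (2.88), Hhex (2.46), Myb (2.25), Lyn (2.05) and Runx1 (1.76), and negative for Ucp2 (-2.27), Gab1 (-2.26), Cd24a (-1.84), Klf3 (-1.65) and Slc25a37 (-1.50). It was positive for Dppa4 (2.78), Hopx (2.29) and Pfkp (2.16) and negative for H19 (-1.71). The pseudogenes Rps3a3 (1.99), Rps15a-ps8 (1.69) and Rps13-ps1 (1.51) had positive values, and the endoderm products Rbp4 (-5.30) and Ttr (-3.57) negative ones. For Hba-x, Rbp4 and Ttr the levels in endothelial cells may be free RNA, which was not tested. Rab27b is one of the genes that chose the progenitor cells, but not the endothelial cells of this test.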

How the results depend on the processing

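The share of primitive erythroid cells (log2 difference -3.55) was -3.98 to -3.12 with 1 library left out, their number per progenitor (-1.68) -2.23 to -1.04, and the globin share of UMIs (-1.89) -2.25 to -1.53. With at least 2 rule genes the first was -1.57, the number per progenitor -0.503 and the globin share -3.49. The counts of genes called moved more. With 160 called higher and 165 lower, leaving out 1 library gave 43 to 180 and 53 to 170. The counts were 30 and 16 with the rule applied after thinning, 98 and 67 with libraries 1 and 2 and 3 and 4 summed, 81 and 74 with Tet-TKO libraries 1 and 2 alone, 40 and 58 with equal numbers of cells, 381 and 410 without a filter on low counts, and 281 and 261 at an adjusted p of 0.05. With 2 rule genes 373 were higher, and of the 325 called genes 126 were called in the same direction and 308 kept their sign. The interaction (162 called) gave 63 to 174 with 1 library left out, 422 with 2 rule genes, 64 after thinning, 92 and 62 with Tet-TKO libraries 1 and 2 or 3 and 4 alone, 354 without the filter, and 245 against neural and 465 against all other cells. The cause of these moves was not tested. Fewer cells or libraries entered the fits after thinning, with equal numbers and with 1 library left out. Of the 325 called genes, 87 of 316 tested were called in the same direction without WT host library 2, 154 of 318 without WT host library 1, 158 of 300 without Tet-TKO library 3 and 43 of 266 after thinning. All of those tested without 1 library kept their sign. No shares were tested after thinning, since Tet-TKO library 4 then held 0 such cells.

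Library numbers are shared between the groups for libraries 1 and 2. Deviations of same-numbered libraries correlated at 0.243 and 0.0119 across 9091 genes, so the numbers were not taken as pairs. The paper compared the proportions of a Tet-TKO sample with those of its matching WT host embryo. Which of these libraries match is not given by the sample labels. With the replicate block 208 genes were called higher and 265 lower, and the log2 differences were -4.37 for the share, -3.28 per progenitor and -1.84 for globin. Numbers 3 and 4 occur only in Tet-TKO, so these differences rest on libraries 1 and 2 of each group. The block leaves little to measure spread, so its counts of calls are not comparable with the others.

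Of 50 named genes called, 48 had 1 sign under every alternative and 11 were called under every one. With 2 rule genes the sign turned for H19 (0.104), Runx1 (-0.158), Dnmt1 (-0.179), Dnmt3b (0.167, and 0.0772 with 4), Tet1 (0.219), Bax (-0.206) and Trp53 (-0.0754). Fgf8 was -0.926 without mixed barcodes and -0.743 to 1.90 with 1 library left out. After thinning Tet3 was -0.115 and Hbb-bh2 0.323, and with the block Tet3 was -0.00394, Cks2 0.202 and Cdk4 0.0891. With libraries 1 and 2 alone Cks2 was 0.208 and Cdk4 0.0932, and with libraries 3 and 4 alone Bax was -0.207, Trp53 -0.0934 and Hmgb2 -0.0844. Hmgb2 was -0.0221 with 4 rule genes, -0.0355 after thinning, -0.0373 without mixed barcodes, -0.0346 without the filter and -0.144 with equal numbers. With 1 library left out Hmgb2 was -0.0282 to 0.0459, Cks2 -0.162 to 0.0648 and Bax -0.0695 to 0.168.

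The 22 to 83 primitive erythroid cells of a Tet-TKO library limit the depth for low genes, so a low gene that was not called is not shown to be equal.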
